A study of Mus musculus with 72 samples.

Results

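CpG island peaks outside promoters are regions of open chromatin whose centre lies in a CpG island but not in the stretch around an annotated transcription start. They were taken from an ATAC-seq table of RAW264.7 cells as the peaks off the mitochondrial chromosome whose detailed annotation begins with CpG and whose annotation is not promoter-TSS. That left 1133 members among 51984 peaks, 51980 of them off the mitochondrial chromosome. RAW264.7 is a mouse macrophage-like line, given as BALB/c in the labels. Lentivirus had brought in a short hairpin against GFP (shGFP, the control), NCOR (shNCOR) or SMRT (shSMRT), and all cells used here were untreated. Each hairpin had 3 ATAC libraries, 9 in all, and 3 RNA-seq libraries, another 9, with libraries grouped by their titles. The ATAC protocol in the labels speaks of wild-type cells in triplicate wells, which differs from the titles. Not analysed here were 54 of the 72 samples, which came from ChIP-seq or CUT&Tag.

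A CpG island is a stretch of DNA rich in CG dinucleotides, which in most of the genome have been lost through methylation of their cytosine. Most islands mark promoters and stay unmethylated, and their chromatin is kept open by transcription factors and by proteins that bind unmethylated CpG. Islands away from annotated starts can hold alternative promoters, enhancers or targets of the Polycomb repressors. NCOR and SMRT are related corepressors: they act through the histone deacetylase HDAC3 and are recruited by nuclear receptors, among other factors.

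No genome sequence was used here, so the peaks themselves are not printed, but 360 of the 1133 members (31.8%) overlapped a RefSeq start window (GRCm38.p6, the assembly behind mm10), which runs from 250 bases before to 50 after a start. These members overlap a start window but were not annotated as promoter-TSS. Some lie just downstream of their nearest annotated start, as at Icosl (178 bp). Others lie farther from it, as at Sirt5 (5242 bp upstream). The 360 members held 429 windows, 329 of the nearest gene in the table and 100 of another gene. The bases before the starts of 4 of these windows are shown with every CG in capitals, 5′ to 3′ on the strand of the gene. All 4 lie wholly inside members described below: Icosl at chr10:78069118-78069367 (plus strand), which was lower in shNCOR, Sirt5 at chr13:43365285-43365534 (plus strand), lower in shSMRT, Ndrg4 at chr8:95678022-95678271 (plus strand), lower in shSMRT than in shNCOR, and Gatad2b at chr3:90292931-90293180 (plus strand), inside one of the members with the highest signal.

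Icosl: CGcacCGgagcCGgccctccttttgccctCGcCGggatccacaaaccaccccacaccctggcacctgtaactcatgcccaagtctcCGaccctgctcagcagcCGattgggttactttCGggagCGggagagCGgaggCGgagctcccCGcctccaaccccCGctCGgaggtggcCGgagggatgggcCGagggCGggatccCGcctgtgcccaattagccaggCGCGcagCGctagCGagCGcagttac
Sirt5: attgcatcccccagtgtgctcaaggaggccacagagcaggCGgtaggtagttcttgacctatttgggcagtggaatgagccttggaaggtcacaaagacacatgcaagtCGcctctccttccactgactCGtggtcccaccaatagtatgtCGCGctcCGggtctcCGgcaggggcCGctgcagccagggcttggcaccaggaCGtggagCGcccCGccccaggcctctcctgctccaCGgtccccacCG
Ndrg4: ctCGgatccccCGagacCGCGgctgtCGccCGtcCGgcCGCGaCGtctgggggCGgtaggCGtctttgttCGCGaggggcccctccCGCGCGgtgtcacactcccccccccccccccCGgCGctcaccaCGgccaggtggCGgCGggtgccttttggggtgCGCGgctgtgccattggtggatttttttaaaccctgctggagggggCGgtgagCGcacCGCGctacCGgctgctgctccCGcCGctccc
Gatad2b: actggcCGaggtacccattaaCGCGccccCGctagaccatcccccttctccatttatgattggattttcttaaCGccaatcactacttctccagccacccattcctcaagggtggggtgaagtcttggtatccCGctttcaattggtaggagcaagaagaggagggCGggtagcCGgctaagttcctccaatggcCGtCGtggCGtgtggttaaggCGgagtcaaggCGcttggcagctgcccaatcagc

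The Ndrg4 stretch held 31 CG dinucleotides, the Icosl stretch 23 and the Sirt5 and Gatad2b stretches 13 each. The ratio of observed to expected CG was 0.918 for Ndrg4, 0.784 for Icosl, 0.664 for Gatad2b and 0.530 for Sirt5, so Sirt5 stood below the 0.6 often used to define an island. Over the 429 windows in members, the median ratio in the 250 bases before the start was 0.737, against 0.789 for 9308 windows in promoter-TSS peaks, 0.300 for 616 windows in other intron or intergenic peaks and 0.374 for all 32851 windows. Both a ratio above 0.6 and a GC content above 50% were met by 64.3% of the windows in members, 72.7% of those in promoter-TSS peaks and 11.5% of those in other intron or intergenic peaks. The GC box GGGCGG, to which Sp1 family factors bind, was found on either strand in 59.2% of the windows in members. It was found in 64.6% of those in promoter-TSS peaks and in 32.7% of all windows. The ETS core CCGGAA was found in 21.0% of the windows in members, 26.4% of those in promoter-TSS peaks and 12.0% of all windows. Since the members were chosen by CpG annotation, their CG content and the motifs rich in CG describe the choice.

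**Figure D1:**
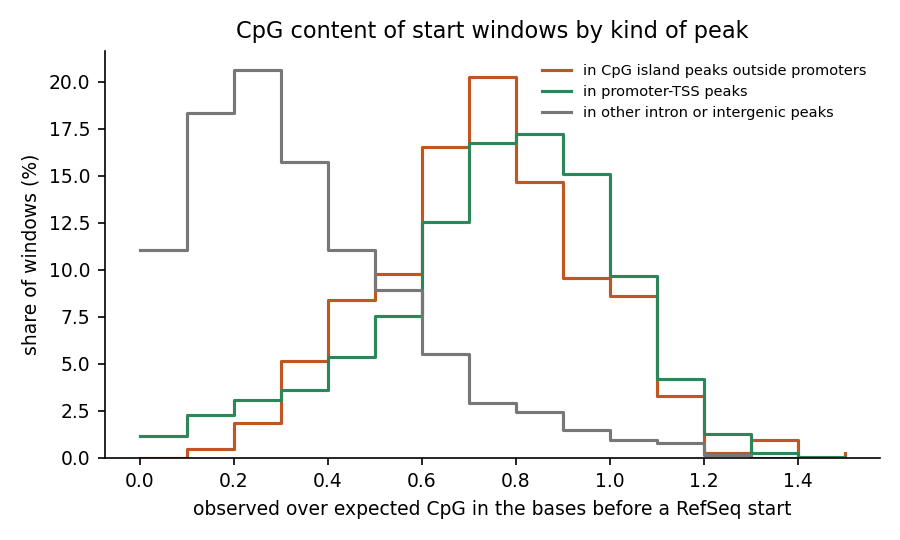
Observed over expected CG ratio in the 250 bases before RefSeq starts (x axis) against the share of windows in percent (y axis), by the kind of peak that the window overlaps. Windows in members and in promoter-TSS peaks lie mostly above 0.6, with medians of 0.737 and 0.789, and windows in other intron or intergenic peaks have a median of 0.300.

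All members are annotated as intron (728, 64.3%) or intergenic (405, 35.7%). Of the intron members, 624 (85.7%) lie in intron 1 of their transcript. The median distance to the nearest annotated start was 1203 bp. It was under 0.5 kb for 395 members, 0.5 to 2 kb for 267, 2 to 10 kb for 188, 10 to 50 kb for 213 and over 50 kb for 70, and 803 members lie downstream of their nearest start. Of the members under 0.5 kb from their nearest start, 0 lay upstream of it. Promoter-TSS peaks had been left out, so the downstream and intron 1 shares describe the choice in part. How large that part is was not tested. The nearest genes were protein-coding for 1035 members. Of 1048 named nearest genes, 64 were nearest to more than 1 member, and 49 members had another member within 2 kb, so members are not independent of each other. The spreadsheet form of the table had turned 2 gene names into dates, and these were read from the transcript identifiers.

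The members were wide and held many reads. Their median width was 575 bp, close to the 573 bp of 9213 promoter-TSS peaks, and above the 322 bp of other intron and 328 bp of other intergenic peaks. Their median value over 9 libraries was 120.8 reads per peak per 10 M reads (quartiles 60.8 and 214), between the 160.7 of promoter-TSS peaks and the 47.9 and 45.8 of other intron and intergenic peaks. Values were not divided by width, and the part of width in these differences was not tested. Peak calls are listed per library, and 826 members (72.9%) were called in all 9 libraries, against 51.9% of all peaks off the mitochondrial chromosome. The share was 83.4% for promoter-TSS peaks, 43.5% for other intron and 42.6% for other intergenic peaks. All 3 libraries of a group called 991 members in shGFP, 884 in shNCOR and 893 in shSMRT. Library depth also differed, at 8.94 to 10.84 M reads per shGFP library, 6.06 to 7.88 M per shNCOR library and 7.07 to 10.65 M per shSMRT library. Calls by group were not counted over all peaks, and the part of depth in them was not tested. A loss of members therefore cannot be read from these counts.

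Depth was 6.06 to 10.84 M reads per ATAC library, with 47.6 to 55.7% of them in peaks and 76 to 140 reads in a median member. Replicate pairs differed by more than sampling noise over the members (chi-square per member 1.55 to 1.83). Since no label ties the libraries of a group to separate cultures, the spread behind each p-value may be technical. In RNA, Ncor1, the gene of NCOR, was at 18.4, 20.2 and 18.7 RPKM in shGFP, 3.61, 4.2 and 4.30 in shNCOR and 18.9, 20.2 and 20.2 in shSMRT, so that the shNCOR libraries lie apart. Of 10 macrophage markers 9 reached 1 RPKM in a library, with summed levels of 7076.2 to 7227.5 RPKM in shGFP, 8201.5 to 8484.3 in shNCOR and 9999.5 to 10538 in shSMRT. Of 9 lymphocyte markers, 1 reached 1 RPKM, and none of 8 neutrophil and mast cell or 11 fibroblast, epithelial and endothelial markers did (4, 6 and 6 of these lists at 0 throughout). Their summed levels lay at 0.893 to 1.63, 0 to 0.54 and 0 to 0.047 RPKM.

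The member with the highest signal lies in intron 3 of Sfi1, a centrosome gene (chr11:3192900-3193636). It was at 1115.93, 998.4 and 1018.04 in shGFP, at 1318.51 and 1244.51 in 2 shNCOR libraries and at 992.44, 1062.91 and 1177.15 in shSMRT. The cell of the remaining shNCOR library holds no number, so this member was not tested. The member in intron 1 of Kat6b, a histone acetyltransferase gene (chr14:21500351-21501320), was at 925.84, 766.84 and 777.36 in shGFP, 925.2, 1010.04 and 907.06 in shNCOR and 630.01, 746.42 and 762.6 in shSMRT. The shSMRT libraries were the lowest, and the log2 fold change was -0.21 ± 0.08 (SE) against shGFP (limma, adjusted p = 0.064) and -0.41 ± 0.08 against shNCOR (adjusted p = 0.000168). The latter call ended under quantile normalization (-0.09, adjusted p = 0.13). The member upstream of Sirt4, a mitochondrial sirtuin gene (chr5:115489417-115490793), fell in shSMRT by 0.30 on the log2 scale (adjusted p = 0.00299), from 756 to 801 in shGFP to 612 to 674. Other leading members lie in intron 1 of the tropomyosin gene Tpm3 (mean 793 over 9 libraries), 64742 bp from Zfp958 (mean 735) and 22668 bp from Mir7012, at the Gatad2b start printed above (mean 704), and none of these 3 was called against shGFP.

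At the other end, 8 members did not reach a value of 10 in 3 libraries and were not tested. Their values ran from 0 to 8.88, and they lie near Rn4.5s (2 members), G530011O06Rik on chromosome Y (2 members), E030030I06Rik, B020031M17Rik, Gm20767 and Gm13283. The members near Rn4.5s and Gm13283 were listed as peaks in all 9 libraries in spite of these values. The 1124 tested members were fitted with all 51469 tested peaks on log2(value + 5), and a peak is called at an adjusted p under 0.05.

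In shNCOR the members as a whole changed little. Of 1124 tested members 26 rose and 16 fell against shGFP, beside 4.58% of all tested peaks that rose and 4.0% that fell. The median log2 fold change was 0.05 over members and 0.05 over all peaks. Scaling each library to its summed peak signal turned the split to 12 higher and 23 lower, with 2.92% and 4.91% of all peaks higher and lower. Quantile normalization gave 9 and 25, with 3.19% and 3.92% of all peaks. The count of rises was 10 without shGFP 2, 14 without shGFP 3 and 15 without shNCOR 1, and that of falls 7 without shGFP 1, 10 without shGFP 2 and 7 without shGFP 3. Depletion of the target and any other difference between the separately infected populations cannot be told apart in these comparisons, and in bulk cells neither can fewer open cells and less signal per cell.

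Members that rose in shNCOR lie at genes of a chemokine receptor, transcription factors and enzymes, among others. In the only intron of the listed Cxcr4 transcript, the gene of the CXCL12 receptor (chr1:128590768-128591272), the values were 35.8, 48.8 and 42.4 in shGFP, 72.6, 97.4 and 102.8 in shNCOR and 69.5, 89.6 and 84.9 in shSMRT. Both knockdowns lay above all shGFP libraries, with log2 fold changes of 1.01 ± 0.19 in shNCOR (adjusted p = 0.000165) and 0.87 ± 0.19 in shSMRT (adjusted p = 0.000681). Cxcr4 RNA rose as well, from 1.67 RPKM to 12.4 in shNCOR and 7.96 in shSMRT. RNA levels of single genes are means over 3 libraries, and RNA is said to have risen or fallen only where it was called. The member with the largest rise lies in an intron 7919 bp from the start of Mrps12, a mitochondrial ribosomal protein gene (chr7:28732670-28733134). It went from 23.5, 22.5 and 47.0 to 110.9, 107.3 and 131.9 in shNCOR, with 46.0, 43.1 and 50.9 in shSMRT. The shNCOR libraries stood apart from both other groups (1.82 ± 0.22, adjusted p = 3e-08 against shGFP), while Mrps12 RNA was at 29.5 RPKM in shGFP and 27.5 in shNCOR.

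Both knockdowns also had higher members at Nr4a2, an orphan nuclear receptor gene, and Smpdl3a, a phosphodiesterase gene known as a target of the LXR receptors. The Nr4a2 member (chr2:57116192-57117104) was at 129.7, 155.6 and 119.9 in shGFP, 231, 191 and 199 in shNCOR and 201, 195 and 201 in shSMRT. Its log2 fold change was 0.60 ± 0.12 in shNCOR (adjusted p = 0.000275) and 0.55 ± 0.12 in shSMRT (adjusted p = 0.000494), with no overlap with shGFP. A second Nr4a2 member was not called. Nr4a2 RNA was at 1.04 RPKM in shGFP and 1.00 in shNCOR, and rose to 2.12 in shSMRT. The member in intron 1 of Smpdl3a (chr10:57794548-57795162) was at 91.7, 85.3 and 106 in shGFP, 119, 160 and 164 in shNCOR and 168, 183 and 173 in shSMRT. All knockdown libraries exceeded shGFP (0.61 ± 0.13, adjusted p = 0.00137, and 0.86 ± 0.13, adjusted p = 3.86e-06), and Smpdl3a RNA rose from 8.43 RPKM to 15.9 and 19.7.

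Hivep2, a zinc finger gene, had a member 1203 bp upstream of its start that rose in shNCOR (0.53 ± 0.11, adjusted p = 0.00147) and stood at 0.03 ± 0.11 in shSMRT. Rises at Runx2, a Runt family transcription factor gene (0.97 ± 0.27), at Ndufb8, a respiratory complex I gene (0.48 ± 0.14), and at Tsen54, a tRNA splicing gene (0.48 ± 0.16), rested on few libraries. The Runx2 call ended without shGFP 2, shGFP 3 or shNCOR 2 (adjusted p up to 0.0879), and those of Ndufb8 and Tsen54 without shGFP 2, shGFP 3, shNCOR 1 or shNCOR 3 (up to 0.14 and 0.203) and under both rescalings. Runx2 RNA rose from 0.150 to 1.36 RPKM.

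Among the members that fell in shNCOR, Icosl, the gene of the ligand of the T cell costimulator ICOS, had the lowest adjusted p among those named. The member at its start (chr10:78069090-78070002, the sequence printed above) was at 119.6, 172.5 and 138.3 in shGFP, 59.4, 36.3 and 58.4 in shNCOR and 107, 114.6 and 99.0 in shSMRT. Every shNCOR library lay below every other library (-1.41 ± 0.17, adjusted p = 1.96e-08), and the shSMRT libraries lay below shGFP without a call (-0.40 ± 0.17, adjusted p = 0.0895). Icosl RNA fell from 1.71 RPKM in shGFP to 0.129 in shNCOR, and was at 1.27 in shSMRT. The member at Egfl7, which encodes a secreted protein of endothelial cells and hosts a microRNA, fell too (chr2:26586550-26587112, -0.84 ± 0.20, adjusted p = 0.0044), with Egfl7 RNA at 2.07 and 1.61 RPKM.

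A member 2172 bp upstream of Hs3st3b1, a heparan sulfate sulfotransferase gene, went from 87.2, 75.9 and 85.8 in shGFP to 27.7, 49.5 and 22.8 in shNCOR and 38.5, 47.6 and 52.4 in shSMRT. Both knockdowns lay below shGFP (-1.26 ± 0.23, adjusted p = 0.000136, and -0.79 ± 0.23, adjusted p = 0.0117), though the shSMRT call ended without shGFP 1, shGFP 3 or shSMRT 1 (adjusted p up to 0.0716). Hs3st3b1 RNA fell from 5.04 to 2.89 and 4.14 RPKM. In intron 1 of Hap1, the huntingtin-associated protein gene, the member was at 29.1, 35.6 and 36.9 in shGFP, 13.2, 9.90 and 6.34 in shNCOR and 7.51, 13.6 and 4.24 in shSMRT. Both groups lay below shGFP (-1.41 ± 0.38, adjusted p = 0.0114, and -1.58 ± 0.38, adjusted p = 0.00224), the shNCOR call ending without shGFP 2 or shGFP 3 (adjusted p up to 0.0678). Further falls in shNCOR were those of Slco5a1, an organic anion transporter gene (-1.42 ± 0.40), Taf1b, an RNA polymerase I factor gene (-1.05 ± 0.32), Celf5, an RNA-binding protein gene (-0.93 ± 0.25), and Irs1, an insulin receptor substrate gene (-0.76 ± 0.20). Each of these calls ended without 1 or more libraries: Slco5a1 without any shGFP library or shNCOR 2 (adjusted p up to 0.11), Taf1b without any shGFP library, shNCOR 2 or shNCOR 3 (up to 0.177), Celf5 without shGFP 1 (0.0675) and Irs1 without shGFP 3 or shNCOR 1 (up to 0.208). The Slco5a1 values were low, at 17.9, 18.8 and 20.3 in shGFP and 9.24, 0 and 5.07 in shNCOR. It was listed as a peak in only 3 libraries.

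In shSMRT the members were mostly lower. Of 1124 tested members 17 rose and 241 fell against shGFP (21.4% lower), beside 6.81% of all tested peaks that rose and 10.9% that fell. The median log2 fold change was -0.20 over members and -0.09 over all peaks, and 929 of 1124 members lay below 0. The median member value was 128.6, 123.7 and 129.1 in the shGFP libraries, 130.7, 128.7 and 129.4 in shNCOR and 103.3, 111.2 and 107.5 in shSMRT, so shSMRT lay below both other groups. Members took 3.52, 3.45 and 3.45% of the signal in peaks in shGFP, 3.53, 3.54 and 3.39% in shNCOR and 3.17, 3.27 and 3.28% in shSMRT. The share of reads in peaks moved with this, at 54.0, 50.6 and 53.1% in shGFP, 54.7, 55.7 and 55.4% in shNCOR and 47.6, 49.9 and 49.5% in shSMRT, and its part in the counts was not tested beyond rescaling. With libraries scaled to their summed peak signal, 30 members rose and 96 fell, and the median over members was -0.10 with 0.003 over all peaks. Under that scaling 8.89% of all peaks rose and 5.29% fell, so that the calls over all peaks turned to mostly higher. Quantile normalization gave 35 and 93, with 8.53% and 6.52% of all peaks. The falls numbered 101 without shGFP 1, 126 without shGFP 3 and 139 without shSMRT 1, and the rises 10 without shGFP 2, 10 without shGFP 3 and 7 without shSMRT 2.

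**Figure D2:**
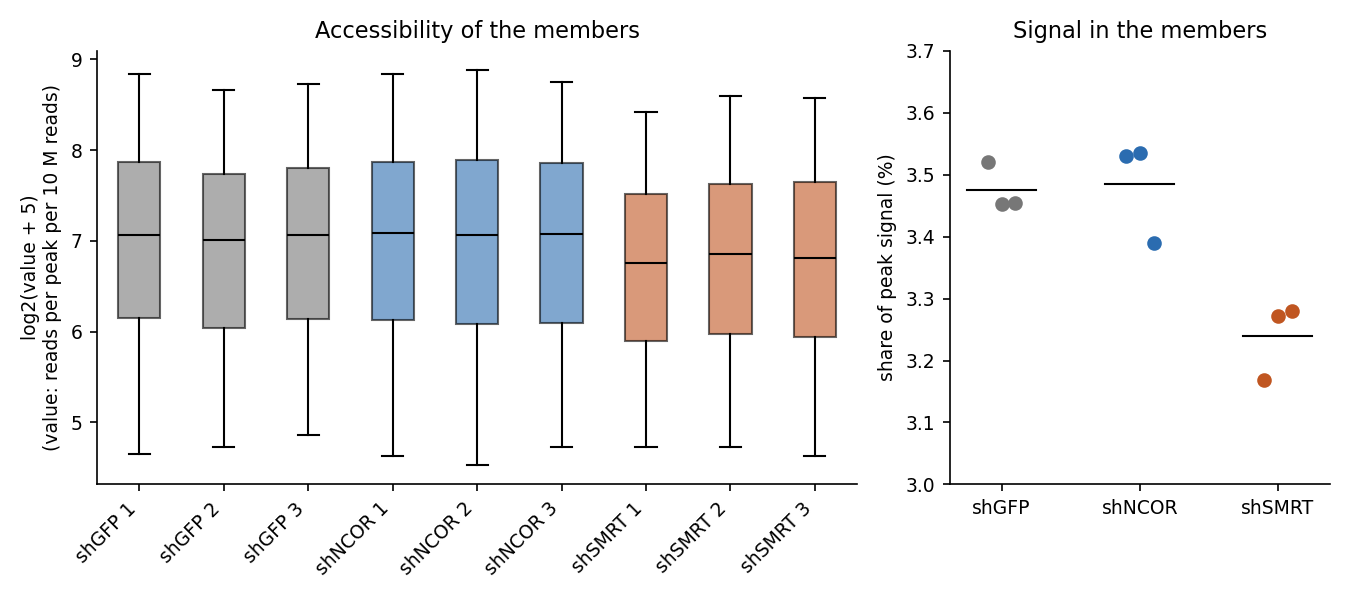
Left, box plots of log2(value + 5) over the members in each ATAC library (box, quartiles; line, median; whiskers, the central 90% of members). Right, the share of the summed peak signal that lies in members, 1 point per library and a line at the group mean, on an axis that starts at 3%. The 3 shSMRT libraries, at 3.17 to 3.28%, lie below the other 6, at 3.39 to 3.54%.

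The kinds of peak were set side by side, with no test of the difference between them. Against shGFP, 22.7% of 9192 tested promoter-TSS peaks fell in shSMRT, with a median of -0.20, while 6.71% of other intron peaks and 8.27% of other intergenic peaks fell, with medians of -0.03 and -0.03. Peaks in exons, UTRs, transcript ends or non-coding genes lay between, with 13.2% lower and a median of -0.14. Peaks of the same level were also set side by side. For mean values of 100 to 200, the median was -0.21 over 360 members, -0.22 over 2853 promoter-TSS peaks and -0.08 over 5776 other intron or intergenic peaks. For values of 200 to 400 it was -0.21, -0.21 and -0.12. Peaks in exons, UTRs, transcript ends or non-coding genes had medians of -0.19 and -0.18 in these bands, so values near those of the members were not limited to promoters. In shNCOR the medians of members, promoter-TSS peaks and other intron or intergenic peaks were 0.06, 0.06 and 0.08 at 100 to 200, and 0.10, 0.11 and 0.11 at 200 to 400.

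**Figure D3:**
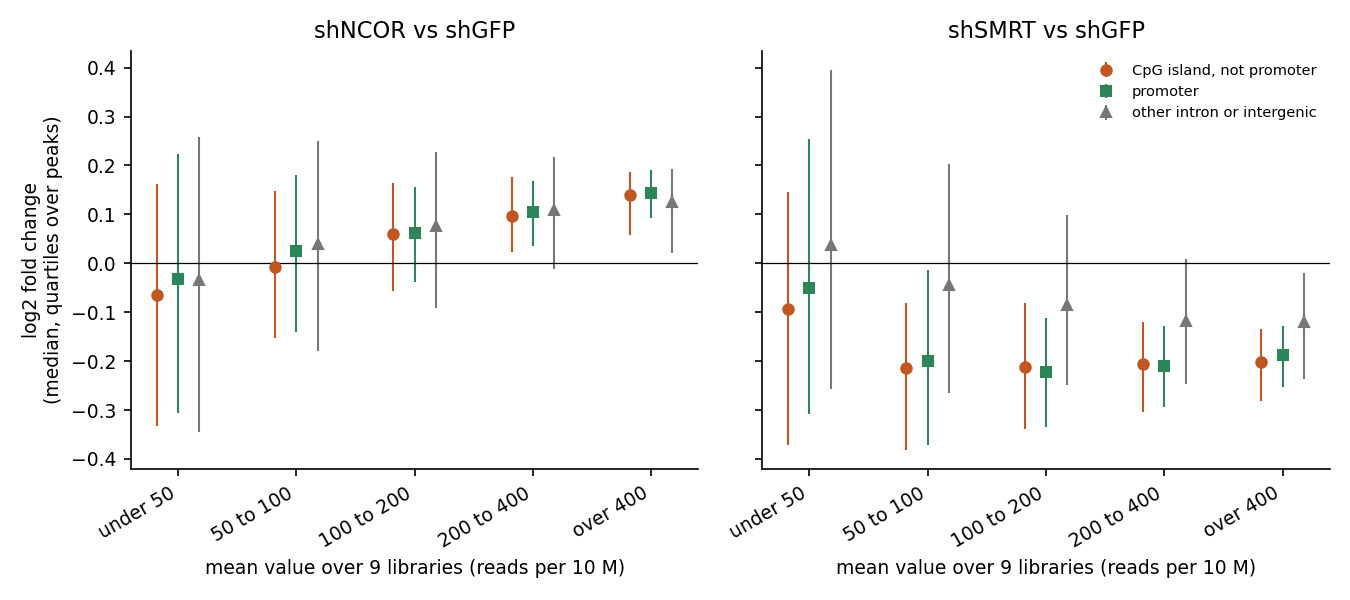
Median log2 fold change (points) with quartiles over peaks (lines) by the mean value over 9 libraries, for members, promoter-TSS peaks and other intron or intergenic peaks, in shNCOR and shSMRT against shGFP. In shSMRT the members at 100 to 200 (median -0.21) lie with promoters (-0.22) and below other peaks (-0.08), while in shNCOR the 3 kinds lie together.

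Falls in shSMRT were seen at every distance from a start. Of the 360 members at a RefSeq start window, 89 fell and 0 rose, with a median of -0.21, and of the 764 tested members with no such window, 152 fell and 17 rose, with a median of -0.20. Members under 0.5 kb from a start had a median of -0.21 (88 of 394 fell), members at 2 to 10 kb -0.24 (50 of 185) and members at 10 to 50 kb -0.20 (47 of 209). Beyond 50 kb, 9 of 70 fell and none rose, with a median of -0.16. Intron members had a median of -0.20 and intergenic members -0.21. On the X chromosome 8 of 29 members fell in shSMRT (27.6%), beside 21.4% of all tested members and 10.9% of all tested peaks. The median of those 29 was -0.35 in shSMRT and -0.14 in shNCOR. Other peaks on the X chromosome were not counted, so a shift of the whole chromosome cannot be told apart from one of these members. Members called as peaks in all 9 libraries fell in 215 of 822 cases, and the weaker members called in fewer libraries in 26 of 302, with medians of -0.21 and -0.18.

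The rises in shSMRT were few. The largest was in intron 1 of Nsd1, a histone H3 lysine methyltransferase gene (chr13:55212172-55212963), at 21.3, 16.9 and 11.1 in shGFP, 31.7, 19.8 and 30.5 in shNCOR and 46.0, 57.9 and 62.3 in shSMRT. Every shSMRT library was the higher (1.52 ± 0.29, adjusted p = 0.000142), and Nsd1 RNA rose from 0.384 to 1.25 RPKM. In intron 1 of Pde4dip, a gene of a phosphodiesterase-anchoring protein of the centrosome and Golgi (chr3:97867772-97868385), values went from 50.3, 35.6 and 36.0 in shGFP and 50.2, 31.4 and 27.9 in shNCOR to 78.9, 91.9 and 108.9 in shSMRT. Only shSMRT stood apart (1.11 ± 0.22, adjusted p = 0.000294). Pde4dip RNA fell from 12.4 RPKM in shGFP to 11.1 in shNCOR and rose to 17.6 in shSMRT. Besides Cxcr4 and Smpdl3a, rises were seen near Id1, a gene of an inhibitor of bHLH factors (0.83 ± 0.24), at Hacd1, a very-long-chain fatty acid enzyme gene (0.94 ± 0.33), at Qpct, a glutaminyl cyclase gene (0.77 ± 0.25), and at Tent5c, a poly(A) polymerase gene (1.02 ± 0.32).

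These 4 calls were sensitive to single libraries: Id1 without shGFP 3 or shSMRT 2 (adjusted p up to 0.103), Hacd1 without shGFP 2, shGFP 3, shSMRT 1 or shSMRT 2 (0.188), Qpct without any shGFP library, shSMRT 1 or shSMRT 2 (0.206) and Tent5c without shGFP 1, shSMRT 1 or shSMRT 3 (0.111). RNA of Id1 rose from 1.93 to 7.34 RPKM, of Hacd1 from 2.17 to 11.7 and of Qpct from 0.84 to 7.48 in shSMRT. Tent5c RNA, at 0.234 and 0.128 RPKM, was too low to be tested.

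Among the falls in shSMRT, the member at Sirt5, a mitochondrial lysine deacylase gene (chr13:43365176-43365772, printed above), was at 154.3, 118.1 and 142.9 in shGFP, 163.7, 133.7 and 131.9 in shNCOR and 93.0, 57.9 and 73.6 in shSMRT. All 3 shSMRT libraries lay below the other 6 (-0.86 ± 0.15, adjusted p = 3.06e-05), while Sirt5 RNA was at 3.52, 3.49 and 3.83 RPKM. In intron 1 of Slc6a9, a glycine transporter gene (chr4:117836299-117836771), values were 189, 178 and 160 in shGFP, 149, 150 and 134 in shNCOR and 80.8, 122.5 and 87.7 in shSMRT. The groups did not overlap (-0.85 ± 0.13, adjusted p = 6.78e-06 for shSMRT), and Slc6a9 RNA fell from 5.05 to 2.17 RPKM. Other falls were at Usp9x, an X-linked deubiquitinase gene (-0.97 ± 0.21, adjusted p = 0.000912), Mef2b, a MADS-box transcription factor gene (-0.87 ± 0.22, adjusted p = 0.00414), and Thoc7, an mRNA export gene (-0.86 ± 0.21, adjusted p = 0.00335).

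Usp9x RNA rose from 9.13 to 11.5 RPKM and Thoc7 RNA fell from 63.0 to 45.7. Falls near Ttc1, a tetratricopeptide gene (-0.99 ± 0.29), and Rn4.5s (-0.93 ± 0.32) depended on libraries: the Ttc1 call ended without shGFP 2, shGFP 3 or shSMRT 3 (adjusted p up to 0.0986), and that of Rn4.5s without shGFP 1, shGFP 3, shSMRT 2 or shSMRT 3 (up to 0.136). Rn4.5s is a repeated gene, so its reads may be split among copies.

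**Figure D4:**
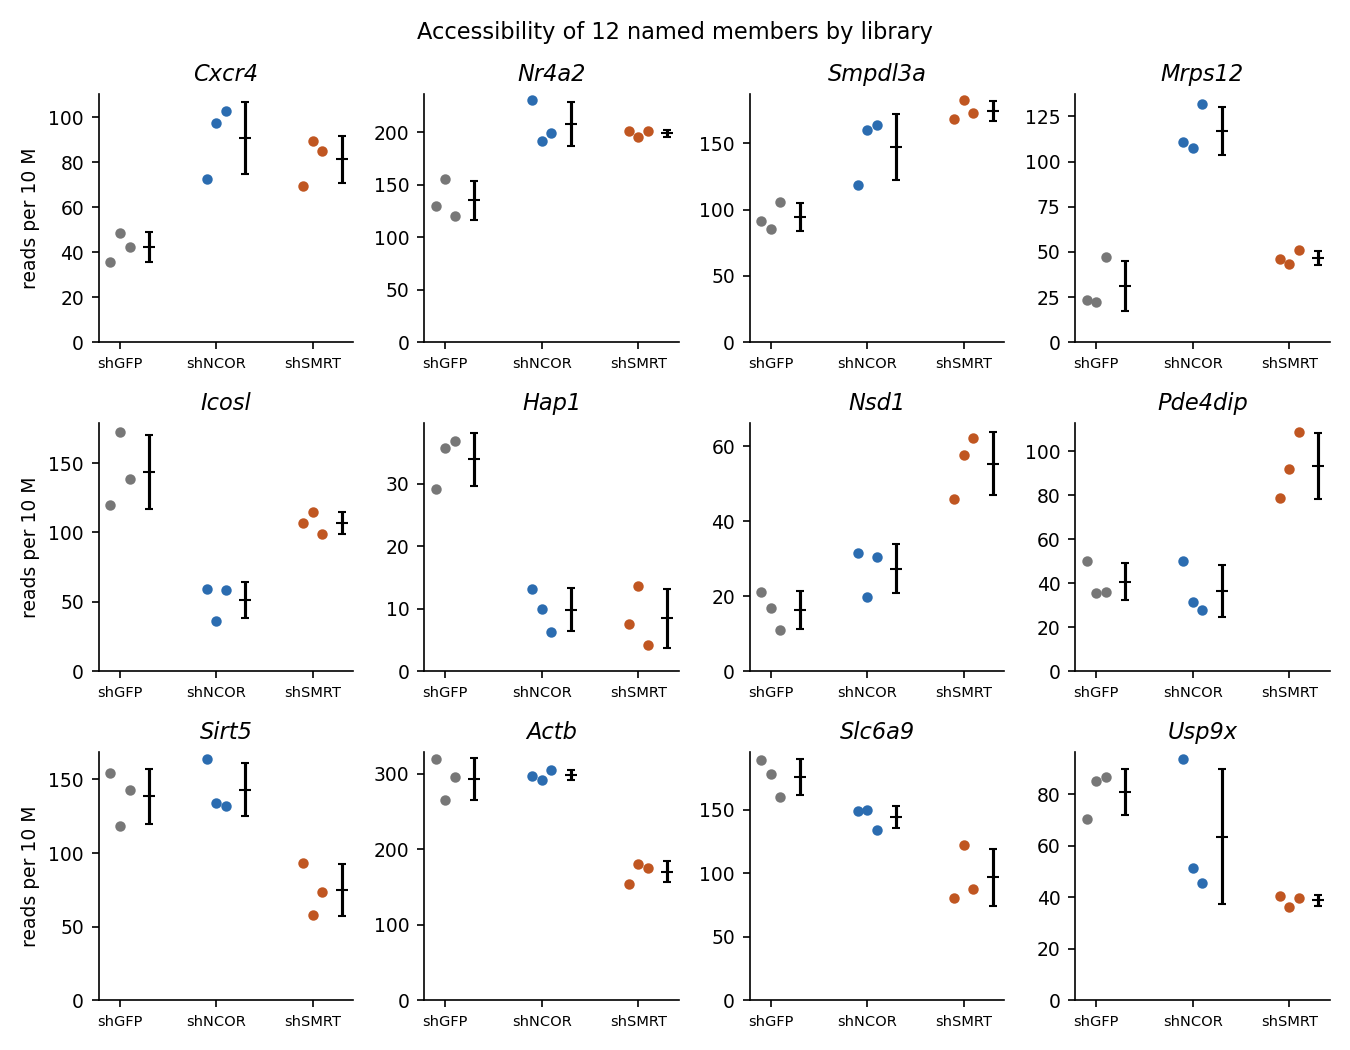
Accessibility in reads per peak per 10 M reads (y axis, from 0) of 12 members named by their nearest gene, with 1 point per library and the mean and SD (n = 3) beside each group. Cxcr4, Nr4a2 and Smpdl3a were higher in both knockdowns, Mrps12 in shNCOR, and Nsd1 and Pde4dip in shSMRT. Icosl was lowest in shNCOR, Hap1 lower in both, and Sirt5, Actb, Slc6a9 and Usp9x lowest in shSMRT.

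Between the knockdowns, which share no library, 19 members were higher in shSMRT and 365 lower, beside 6.93% and 17.5% of all tested peaks, with a median of -0.25 over members and -0.12 over all peaks. Rescaling to the summed peak signal gave 30 and 103 members, with 9.91% of all peaks higher and 5.06% lower. Quantile normalization gave 23 and 64, with 6.90% and 4.66% of all peaks, and without shSMRT 3 the members higher in shSMRT numbered 11. Over all peaks the calls thus turned from mostly lower to mostly higher under both scalings. The 2 comparisons with shGFP share its libraries. In them, 4 members were called higher in both (near Cxcr4, Nr4a2, Smpdl3a and Mir23a) and 6 lower in both (near Hap1, Bicdl1, Ccng2, Socs3 and 2 near Hs3st3b1). The overlap over all peaks was not counted, so these numbers have no general share beside them. The member in intron 1 of Actb, the gene of beta-actin (chr5:142905753-142906191), was at 320, 264 and 295 in shGFP, 297, 292 and 304 in shNCOR and 154, 180 and 175 in shSMRT. Its shSMRT libraries lay below the other 6 (-0.79 ± 0.10 against shNCOR, adjusted p = 6.45e-08). Actb RNA fell from 2493 RPKM in shGFP to 2019 in shNCOR and 2170 in shSMRT. Between the knockdowns Actb RNA was higher in shSMRT (0.10 ± 0.04, adjusted p = 0.0495, close to the threshold), while the member was lower.

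Sirt5 (-0.91 ± 0.15) and Mrps12 (-1.23 ± 0.22) were likewise lower in shSMRT than in shNCOR. So was the member at a RefSeq start of Ndrg4 (chr8:95678019-95678832, printed above), at 76.0, 115.3 and 93.1 in shGFP, 129.3, 130.4 and 126.9 in shNCOR and 62.0, 79.4 and 84.9 in shSMRT (-0.75 ± 0.16, adjusted p = 0.00041). The shNCOR libraries were the highest. Ndrg4 RNA rose from 32.4 RPKM in shGFP to 64.1 in shNCOR, and was at 32.7 in shSMRT. Pigk, a GPI transamidase gene, was lower in shSMRT than in shNCOR (-0.84 ± 0.20, adjusted p = 0.00135). Calls near Ldlrad2 (-0.83 ± 0.25), the glucose transporter gene Slc2a3 (-0.83 ± 0.29) and the NK cell receptor gene Klrb1c (-0.84 ± 0.32) ended when libraries were rescaled to the summed peak signal and without shNCOR 2 for Ldlrad2, without shNCOR 1, shNCOR 2, shSMRT 1 or shSMRT 2 for Slc2a3, and without shNCOR 1, shNCOR 3 or shSMRT 2 for Klrb1c (adjusted p up to 0.0573, 0.173 and 0.316).

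Higher in shSMRT than in shNCOR were members near Slco5a1 (1.72 ± 0.40), Mos, a germ cell kinase gene (1.51 ± 0.35), Qpct (1.30 ± 0.25), Pde4dip (1.27 ± 0.22), Taf1b (1.07 ± 0.32), Icosl (1.02 ± 0.17), G530011O06Rik on chromosome Y (0.95 ± 0.24) and Celf5 (0.93 ± 0.25). The Taf1b call ended without shSMRT 3 (adjusted p = 0.119), under quantile normalization and under voom, and that of Celf5 without shSMRT 3 (0.0562). For Slco5a1, Mos, Taf1b, Icosl and Celf5, shNCOR was also called lower than shGFP, the Mos call (-1.15 ± 0.35) ending without shGFP 2, shGFP 3, shNCOR 1 or shNCOR 2 (adjusted p up to 0.237), and for Nsd1 the shSMRT rise over shNCOR (0.91 ± 0.29) ended without shNCOR 2, shSMRT 2 or shSMRT 3 (adjusted p up to 0.0794).

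The lists by role of the nearest gene are small, and their counts stand beside 4.58% of all peaks that rose and 4.0% that fell in shNCOR, and 6.81% and 10.9% in shSMRT, where 21.4% of all tested members fell. Macrophage transcription factors held 22 members at 18 genes. Against shGFP, 2 rose and 1 fell in shNCOR, with a median of 0.05, and 3 rose and 3 fell in shSMRT, with a median of -0.12. Besides Nr4a2 and Id1, Id2, another gene of a bHLH inhibitor, rose in shSMRT (0.46 ± 0.15). That call ended without shGFP 2, shGFP 3, shSMRT 2 or shSMRT 3 (adjusted p up to 0.17). Id2 RNA rose from 4.25 to 15.0 RPKM in shSMRT. Among those that fell in shSMRT were members at Egr3, a zinc finger factor (-0.32 ± 0.09), and Jun, a subunit of AP-1 (-0.30 ± 0.09). Egr3 RNA rose by 1.01 on the log2 scale while its member fell, and Jun RNA fell by 0.34. In shNCOR, Fos, another AP-1 gene, had the second rise (0.27, adjusted p = 0.0405) and Klf4, a Krüppel-like factor gene, the fall (-0.35, adjusted p = 0.0495), both close to the threshold. These 4 were chosen after their values were seen, and their calls were not followed through the alternatives.

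Corepressor subunits and chromatin regulators held 17 members at 7 genes, of which none was called in shNCOR and 3 fell in shSMRT. The BCL6 corepressor-like gene Bcorl1 had 2 of these, at 260.5, 243.7 and 237.9 in shGFP, 262.65, 229.4 and 216.9 in shNCOR and 149.3, 133.9 and 154.2 in shSMRT for the upstream member (-0.74 ± 0.11, adjusted p = 9.63e-07). The shSMRT libraries lay below the rest, and the member in intron 2 fell as well (-0.55 ± 0.13, adjusted p = 0.00147). Tbl1x, a subunit gene of the NCOR and SMRT complexes, had a member 77580 bp upstream that fell (-0.54 ± 0.16), a call that ended without shGFP 1, shGFP 3, shSMRT 1 or shSMRT 2 (adjusted p up to 0.0801). The related gene Bcor had 6 members on the X chromosome and Kdm6b, a histone H3K27 demethylase gene, had 3, and none of these 9 was called against shGFP.

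Of the 5 members at nuclear receptor and lipid genes, 1 rose in each knockdown (Smpdl3a) and 2 fell in shSMRT. Both of the latter lie upstream of Scd2, a stearoyl-CoA desaturase gene. The one 9389 bp from the start was at 574, 511 and 534 in shGFP, 614, 647 and 603 in shNCOR and 376, 405 and 392 in shSMRT, and the other, 26497 bp away, at 631, 547 and 599, then 653, 642 and 605, then 397, 433 and 456. The shSMRT libraries were the lowest at both (-0.46 ± 0.08 each, adjusted p = 3.41e-05 and 3.49e-05). Scd2 RNA was at 352 RPKM in shGFP and 373 in shNCOR, and fell to 237 in shSMRT. Of 3 members at inflammatory genes, the one near Socs3, a feedback inhibitor of cytokine signalling, was lower in both knockdowns (-0.31 ± 0.09 and -0.43 ± 0.09), the shNCOR call ending without shGFP 1, shGFP 3, shNCOR 2 or shNCOR 3 (adjusted p up to 0.161). One near the immediate early gene Ier2 fell in shSMRT (-0.36 ± 0.12), a call that ended without any 1 of the 6 libraries (adjusted p up to 0.175 over the alternatives). Socs3 RNA fell from 5.51 to 2.52 and 4.17 RPKM. Ier2 RNA was at 34.4 RPKM in shGFP and 36.2 in shNCOR, and rose to 39.0 in shSMRT while its member fell.

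Developmental transcription factors of the kind that Polycomb holds silent had 8 members, among them members near Tbx2, Lhx1, Gata2 and Pax3, chosen for naming after their values were seen. They were weakly open, with a median value of 38.5, and none was called against shGFP, with medians of -0.12 in shNCOR and -0.42 in shSMRT. In shGFP, Pax3 RNA was at 0.595 RPKM, Tbx2 RNA at 0.00867 RPKM, and Gata2 and Lhx1 were listed at 0.

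RNA was measured for nearly all nearest genes. Of 1048 nearest genes 1047 were in the RNA table and 804 reached 1 RPKM in at least 3 libraries. The median level in shGFP was 8.74 RPKM, against 11.0 for genes nearest to promoter-TSS peaks, 3.40 for other intron and 1.06 for other intergenic peaks. Of the 804, 156 rose and 186 fell in shNCOR (19.4% and 23.1%), beside 17.6% and 20.0% of all 10789 tested genes. In shSMRT 246 rose and 265 fell (30.6% and 33.0%), beside 24.4% and 31.4%. Between the knockdowns 219 were higher and 230 lower in shSMRT, beside 22.8% and 29.0%.

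The RNA of genes nearest to called members was counted by direction. Of 13 tested nearest genes of members that rose in shSMRT, 12 rose and 1 fell in RNA, with a median of 1.14. Of 196 tested nearest genes of members that fell in shSMRT, 80 fell and 52 rose (40.8% and 26.5%), with a median of -0.05. In shNCOR, 9 of 23 nearest genes of members that rose were higher and 2 lower (39.1% and 8.70%). Of 9 nearest genes of members that fell in shNCOR, 7 were lower and none higher, with a median of -0.64. Between the knockdowns, 7 of 11 nearest genes of members higher in shSMRT were higher and none lower. Of 292 nearest genes of members lower in shSMRT, 100 were lower and 57 higher (34.2% and 19.5%).

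**Figure D5:**
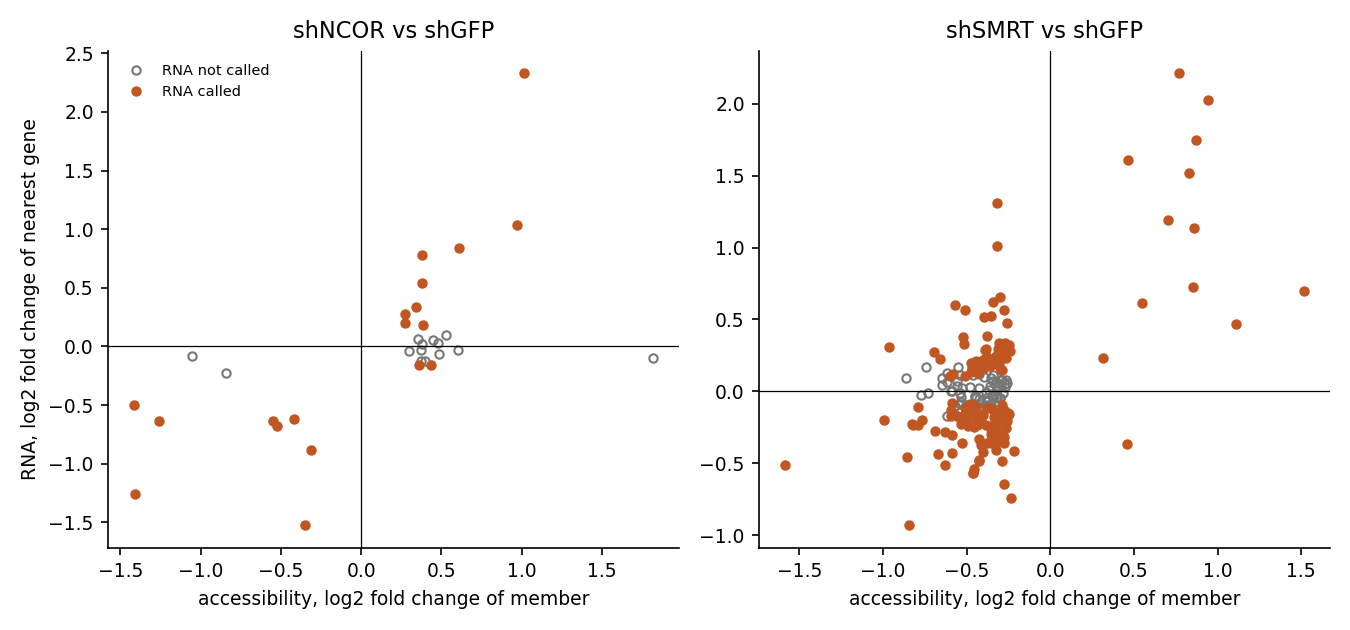
Log2 fold change of the nearest gene in RNA (y axis) against log2 fold change of accessibility (x axis) for each called member whose nearest gene was tested, in shNCOR and shSMRT against shGFP. Filled points are genes called in RNA, open points genes that were not. In shSMRT the members that rose lie mostly at genes that rose (12 of 13 genes), while genes near the members that fell lie on both sides of 0 (80 lower, 52 higher of 196). Of all tested genes, 31.4% fell and 24.4% rose in shSMRT.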

How the data were processed

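Both assays covered 3 hairpin groups with 3 libraries each. The deposited ATAC table gives reads in each peak after scaling by the authors to 10 M reads per library. Its header records HOMER's annotation of merged peaks on mm10 over each peak as given. The deposited RNA values are RPKM over exons on mm10, counted on both strands per the file headers, so reads of overlapping antisense genes cannot be told apart. Bowtie2, HISAT2, HOMER, MACS2, DESeq2, mm9 and mm10 appear in the submitters' processing notes. Their versions and roles, the peak caller used and any shift of reads for the transposase are not given in the sources used here. Decimal commas were read as points, and 1 peak with a cell that holds no number was left out of the tests. Every ATAC value was a whole multiple of the value of 1 read to within 0.1 read, which gave the depth.

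The members and the lists of genes were chosen with earlier results of these data known. Peaks that reached 10 in 3 or more libraries were fitted on log2(value + 5), and genes that reached 1 RPKM in 3 or more libraries on log2(RPKM + 1), using all 9 libraries, the trend option of limma 3.58.1 and R 4.3.3. Adjustment was by Benjamini-Hochberg over all features, with calls at an adjusted p under 0.05. Such fold changes understate changes of low features. The fits were tested on simulated data. Named members are, per comparison, the 8 highest and 8 lowest called fold changes among those whose groups do not overlap, then the 6 highest mean values, and up to 3 called members per list. Others were chosen after their values were seen. Pseudocounts, filters, scalings, a replicate block, the libraries in the fit and the distance to a start were varied. The transcript that shSMRT targets is not reported here. Tables were joined with pandas 2.3.3 and figures drawn with matplotlib 3.10.9.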

Additional observations from a re-analysis of the deposited data

How the results depend on the processing

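Other pseudocounts, other filters, fits on 6 libraries and a voom fit on recovered reads (chosen after seeing the data) left each count of called members within 1.5 times. Rescaling to the summed peak signal gave 12 members higher in shNCOR, 30 higher and 96 lower in shSMRT against shGFP, and 30 higher and 103 lower between the knockdowns, with medians of -0.017, -0.104 and -0.087. Quantile normalization gave 9 higher and 25 lower in shNCOR, 35 and 93 in shSMRT and 64 lower between the knockdowns, with medians of -0.015, -0.099 and -0.080. The 464 tested members at least 2 kb from a start gave 11 higher and 9 lower in shNCOR, 7 and 106 in shSMRT and 145 lower between the knockdowns. The 764 without a RefSeq start window (chosen after seeing the data) gave 17 higher in shNCOR, 152 lower in shSMRT and 223 lower between the knockdowns. In both subsets fewer members were counted. Leaving out 1 library gave 10 to 24 higher and 7 to 16 lower in shNCOR, 7 to 15 and 101 to 201 in shSMRT, and 11 to 18 and 250 to 335 between the knockdowns. RNA counts of nearest genes stayed within 1.5 times in the alternatives run. Of 78 named calls 41 held in all alternatives run, and the Sirt4 difference between the knockdowns turned to 0.0504 under quantile normalization (the cause was not tested). The planned edgeR and DESeq2 fits were not run. A median of 76 to 140 reads per member limits what small changes can be detected.

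In ATAC, libraries that share a number did not deviate together (correlations of -0.043 to 0.022, beside -0.040 to 0.050 for different numbers). In RNA the correlations were weak, at -0.060 to 0.105 for the same number and -0.126 to 0.081 for different numbers. Whether RNA libraries of a number share a small deviation was not tested beyond the block. With a replicate block, 23 members rose and 16 fell in shNCOR, 19 and 218 in shSMRT, and 20 and 351 were higher and lower between the knockdowns. In RNA the block gave 168 and 191, 249 and 274, and 231 and 234 nearest genes. Of the named calls it ended that of Tsen54 in shNCOR.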
